A study of Mus musculus with 2 samples.

Results

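A set of 51 genes of the unfolded protein response (UPR) and of degradation associated with the endoplasmic reticulum, or ER (ERAD), was examined in peak lists of the histone mark H3K36me2 from mouse colon. The members were chosen by name: 5 sensors, 8 effectors, 5 genes for membrane-bound transcription factors and their protease, 10 lumenal chaperones, 7 lectin chaperones and disulfide isomerases, 5 genes of the translocon (the protein channel) and the ER membrane, and 11 ERAD genes. All 51 are among the 21900 protein-coding genes of the mouse gene table that served as background. A gene was counted as having a peak where the authors' annotation gave it as the nearest gene. This held for 24 members, with 16 of the 19976 peaks of the NSD2fl/fl library and 29 of the 23518 peaks of the NSD2∆IE library.

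The UPR and ERAD keep the ER in balance. The membrane sensors IRE1, PERK and ATF6 respond to misfolded protein in the ER, and their effectors slow translation and raise the synthesis of chaperones, while ERAD returns terminally misfolded proteins to the cytosol for the proteasome. In the gut, secretory cells such as mucus-producing goblet cells carry a heavy folding load, and IRE1 has a second form there. H3K36me2 is a mark on histone H3 that NSD2 deposits, found over gene bodies and broad intergenic stretches, and a peak of it at a gene does not measure that gene's expression.

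The assay was CUT&Tag, in which a transposase tethered to an antibody cuts and tags the DNA around its target. Male littermates on a C57BL/6J background started a high-fat cholesterol diet (HFCD) at 7 to 8 weeks of age and stayed on it for 18 weeks by the methods and 16 weeks by the deposited design text. NSD2fl/fl mice carry a floxed Nsd2 gene and served as controls, and NSD2∆IE mice lost it through Villin-Cre, which acts in the intestinal epithelium. There was 1 library of colon tissue per genotype, so no difference between the libraries has a replicate check and none was tested. How many animals each library holds is not given in the sources used here. Colon tissue also holds immune, stromal and vascular cells that keep NSD2, and fewer marked cells cannot be told apart from less of the mark per cell.

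The sequencing depth is unknown. The deposited signal of a peak, summed over its width, started at 21783 in the NSD2fl/fl list and at 16571 in the NSD2∆IE list, so signals served to rank peaks within a list. Peaks were wider in the NSD2fl/fl list, with a mean of 5156 bp against 3747 bp. At Nsd2 itself no peak was listed in NSD2fl/fl and 1 of 3766 bp in NSD2∆IE, which does not check the deletion. Of 10 epithelial marker genes, 5 had a peak in NSD2fl/fl and 6 in NSD2∆IE, with Vil1, Cdx1, Muc2 and Cdhr5 in both and Cdx2, Krt8 and Lgals4 in neither. Vil1 stood apart from the other markers, with up to 64.9 signal units per bp in NSD2fl/fl and 76.8 in NSD2∆IE. The list medians were 6.14 and 6.32, and the cause was not tested. Of 6 immune and 6 stromal or vascular markers, 1 and 1 had a peak in NSD2fl/fl, and 2 and 2 in NSD2∆IE.

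The promoters of many of these genes share short elements through which the UPR acts, and these are shown here because they mark known targets of the sensors among the members. ATF6, with the factor NF-Y, binds the ER stress response element, ERSE (the letters CCAAT and CCACG with 9 bases of any kind between them), and the related ERSE-II (ATTGG and CCACG with 1 base between them). XBP1 binds the UPR element, UPRE (TGACGTGG), and ATF4 and CHOP bind the C/EBP-ATF element, CARE (TTGCATCA). RefSeq promoter windows of 300 bases, which reach from 250 bases before to 50 after a transcription start site (TSS), were at hand for 43 members with 49 windows and were searched on both strands. The windows are on GRCm38.p6, a different build from that of the peak lists, and could not be placed against the peaks. ERSE was found in 9 of the 49 windows, and in 0.119% of all 32851 windows. The members and the elements were both chosen as parts of the UPR, so such shares describe the set and test nothing. In the following windows, read in the direction of the motif, capitals mark the fixed letters of ERSE.
Hspa5 (chr2:34771840-34772139, plus strand): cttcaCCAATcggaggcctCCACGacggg
Hsp90b1 (chr10:86705395-86705694, minus strand): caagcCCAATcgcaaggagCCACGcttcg
Dnajc3 (chr14:118937682-118937981, plus strand): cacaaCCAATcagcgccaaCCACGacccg
Creld2 (chr15:88819396-88819695, plus strand): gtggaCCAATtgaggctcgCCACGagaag
Canx (chr11:50325624-50325923, minus strand): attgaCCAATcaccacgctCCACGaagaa
Calr (chr8:84846882-84847181, minus strand): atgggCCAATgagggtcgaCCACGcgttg
Pdia6 (chr12:17266339-17266638, plus strand): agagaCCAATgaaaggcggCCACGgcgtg
Syvn1 (chr19:6046326-6046625, plus strand): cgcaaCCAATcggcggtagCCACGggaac
Derl3 (chr10:75893148-75893447, plus strand): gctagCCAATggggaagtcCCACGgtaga

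These 9 genes are chaperones, a disulfide isomerase and ERAD factors. The element began 65 bases upstream of the TSS in Hspa5, 105 bases upstream in Dnajc3 and 44 bases upstream in Syvn1. In Creld2, Calr and Derl3 it lay on the strand opposite to the gene, and the Hsp90b1 window held a second copy on that strand. ERSE-II was found in 2 member windows and in 0.0365% of all windows, and capitals mark its fixed letters.
Dnajb11 (chr16:22857595-22857894, plus strand): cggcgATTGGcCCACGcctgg
Herpud1 (chr8:94386179-94386478, plus strand): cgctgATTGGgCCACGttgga

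UPRE was found in windows of Nfe2l1 and Vcp, and in 0.676% of all windows. CARE was found in the window of Herpud1, and in 0.895% of all windows. The reverse complement of UPRE holds the letters CCACG and can overlap an ERSE, which occurred in no member window. Of the 11 genes with ERSE or ERSE-II, 8 had no peak in either list, namely Hspa5, Hsp90b1, Creld2, Canx, Calr, Pdia6, Syvn1 and Dnajb11. The other 3 were Dnajc3, with a peak in NSD2∆IE, Herpud1, with a peak in NSD2fl/fl, and Derl3, with peaks in both. Of the 32 members whose windows held neither element, 17 had no peak in either list. A peak in either list was thus found for 3 of 11 and 15 of 32 genes, beside 43.4% of all protein-coding genes. The match to an element describes these letters only, and no match says nothing of the factor.

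Over all 51 members, 14 had a peak in NSD2fl/fl, or 27.5% (exact 95% interval 15.9% to 41.7%), beside 30.9% of protein-coding genes. In NSD2∆IE 17 members had one, or 33.3% (20.8% to 47.9%), beside 32.9%. Both shares lay close to those of all genes, and the intervals cover counting error only. Peaks in both libraries were listed for 7 members, or 13.7% (5.70% to 26.3%), beside 20.4%, and peaks in either for 24, or 47.1%, beside 43.4%. The 7 genes were Hyou1, Manf, Creb3l1, Creb3l3, Sec61a1, Wfs1 and Derl3. No peak was listed for 27 members, among them Hspa5, the chaperone BiP that holds the sensors inactive, the lectin chaperones Canx and Calr, the sensors Eif2ak3 and Atf6, and Xbp1.

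**Figure D1:**
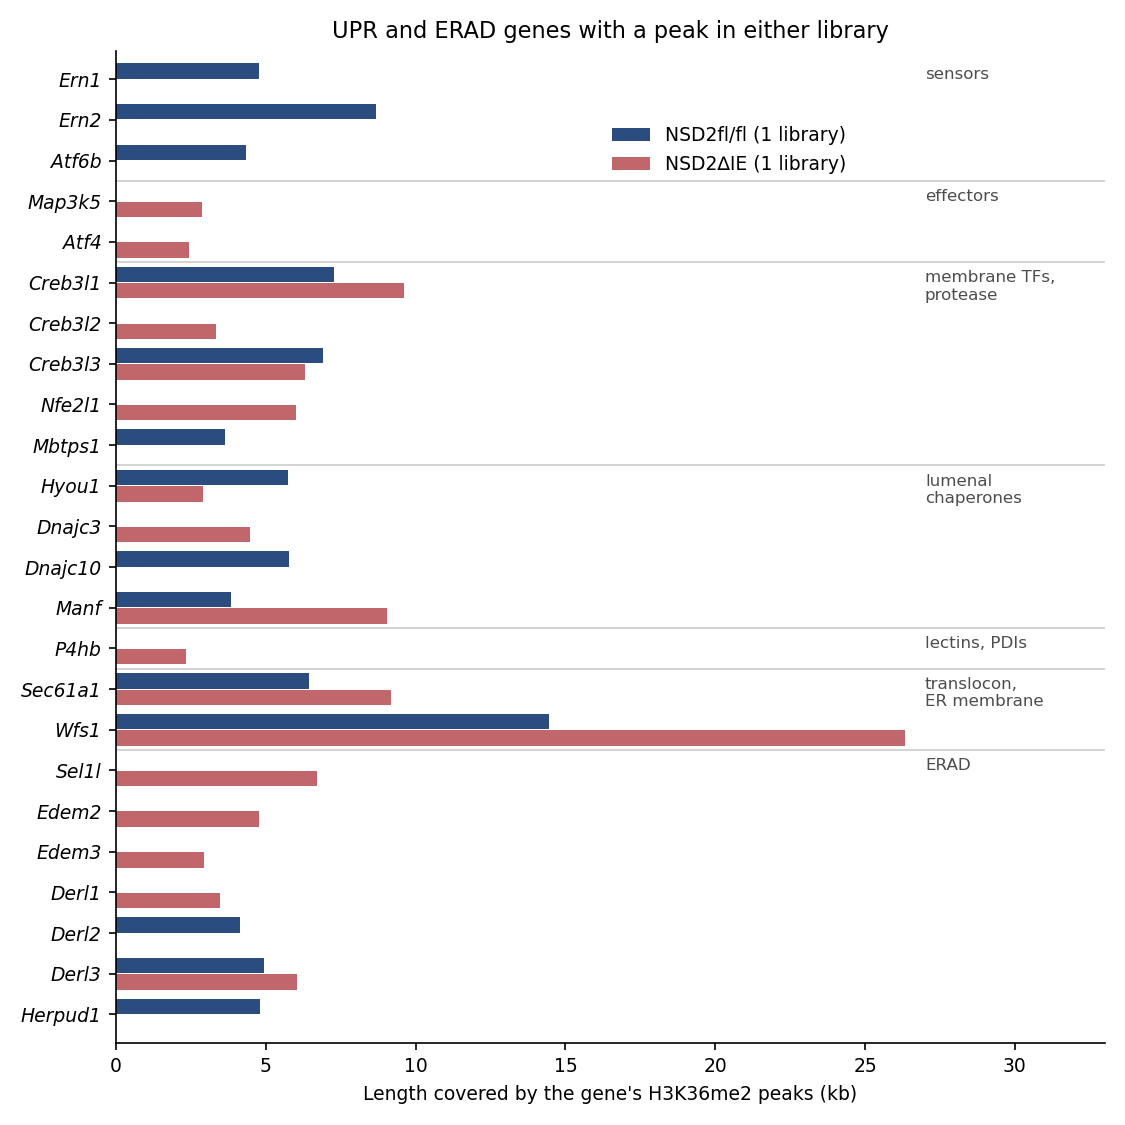
Length in kb covered by the H3K36me2 peaks of each of the 24 members with a peak in either library, grouped by role; bars are the summed widths of a gene's peaks in the 1 NSD2fl/fl and the 1 NSD2∆IE library, so there are no error bars. By nearest gene, the 3 sensors with a peak have NSD2fl/fl bars alone, the 2 effectors NSD2∆IE bars alone, and Wfs1 reaches 26.3 kb.

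The covered length of a gene, the summed width of its peaks, was compared as a log2 ratio of NSD2∆IE to NSD2fl/fl, with a limit of 0.5 in either direction and a peak in 1 list alone counted as less or more. Of the 24 members with a peak, 8 (33.3%, 15.6% to 55.3%) had less length in NSD2∆IE, beside 43.8% of the 9496 protein-coding genes with a peak. More length was found for 13 (54.2%, 32.8% to 74.4%), beside 37.6%, and a similar length for 3 (12.5%), beside 18.6%. The background shares lie inside these intervals. A peak in NSD2fl/fl alone was listed for 7 members, beside 24.1% of these genes, and in NSD2∆IE alone for 10, beside 28.7%. By nearest gene, the median log2 ratio over the 7 members with peaks in both lists was 0.40, and over the 4478 such protein-coding genes it was -0.32. The member median is the ratio of Creb3l1, which leaves out 2 NSD2fl/fl peaks in that gene's body. Together the member peaks covered 85731 bp in NSD2fl/fl, with a mean width of 5358 bp, and 108705 bp in NSD2∆IE, with a mean width of 3748 bp. All peaks of the lists went the other way, with 102992493 bp in NSD2fl/fl and 88118230 bp in NSD2∆IE. Of the member peaks, 2 of 16 in NSD2fl/fl and 14 of 29 in NSD2∆IE lay wholly outside the gene they were assigned to. The share over all peaks is not given here. The member length in NSD2∆IE is thus in part length beside the genes.

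Among the 5 sensors, 3 had a peak, and all 3 of these in the NSD2fl/fl list. Over all protein-coding genes, 43.4% had a peak in either list and 30.9% in NSD2fl/fl. Ern1 encodes IRE1, the kinase and RNase that splices Xbp1 mRNA. Its NSD2fl/fl peak of 4774 bp lay in intron 2 of 20 (chr11:106339623-106344396), 34.2 kb inside the gene, and ranked 13893 of 19976 by signal. No peak of either list lay within 10 kb of the Ern1 start site. Ern2, an IRE1 form found in gut epithelium, had the widest NSD2fl/fl peak of the set at 8669 bp (chr7:121771129-121779797). It began 148 bp after the start site and ranked 1311 of 19976, and the nearest NSD2∆IE peak was 3047 bp away. Atf6b, a relative of ATF6, had a promoter peak of 4327 bp (chr17:34867385-34871711) that began 1265 bp after the start site, with the nearest NSD2∆IE peak at 1319 bp. The list gave the sensors no NSD2∆IE peak by nearest gene. With gene bodies included, 3 of the 5 sensors had a peak in NSD2fl/fl and 3 in NSD2∆IE. The shares over all protein-coding genes were then 36.2% and 38.5%.

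Of the 8 effectors, 2 had a peak, both in NSD2∆IE, where 32.9% of protein-coding genes had one. With gene bodies included, 1 effector had a peak in NSD2fl/fl and 3 in NSD2∆IE, beside 36.2% and 38.5% of protein-coding genes. Map3k5, the stress kinase that IRE1 engages through TRAF2, had a peak of 2875 bp in intron 1 of 21 (chr10:19815121-19817995), 92.4 kb from the nearest NSD2fl/fl peak. Atf4, the transcription factor translated when PERK is active, had a peak of 2447 bp (chr15:80132409-80134855) that lay 4.53 kb upstream of its start site, 32.9 kb from the nearest NSD2fl/fl peak. Neither peak was strong, at ranks 19227 and 15525 of 23518. No peak was listed for Xbp1, Traf2, Ddit3 (CHOP), Trib3, or the phosphatase subunits Ppp1r15a and Ppp1r15b.

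**Figure D2:**
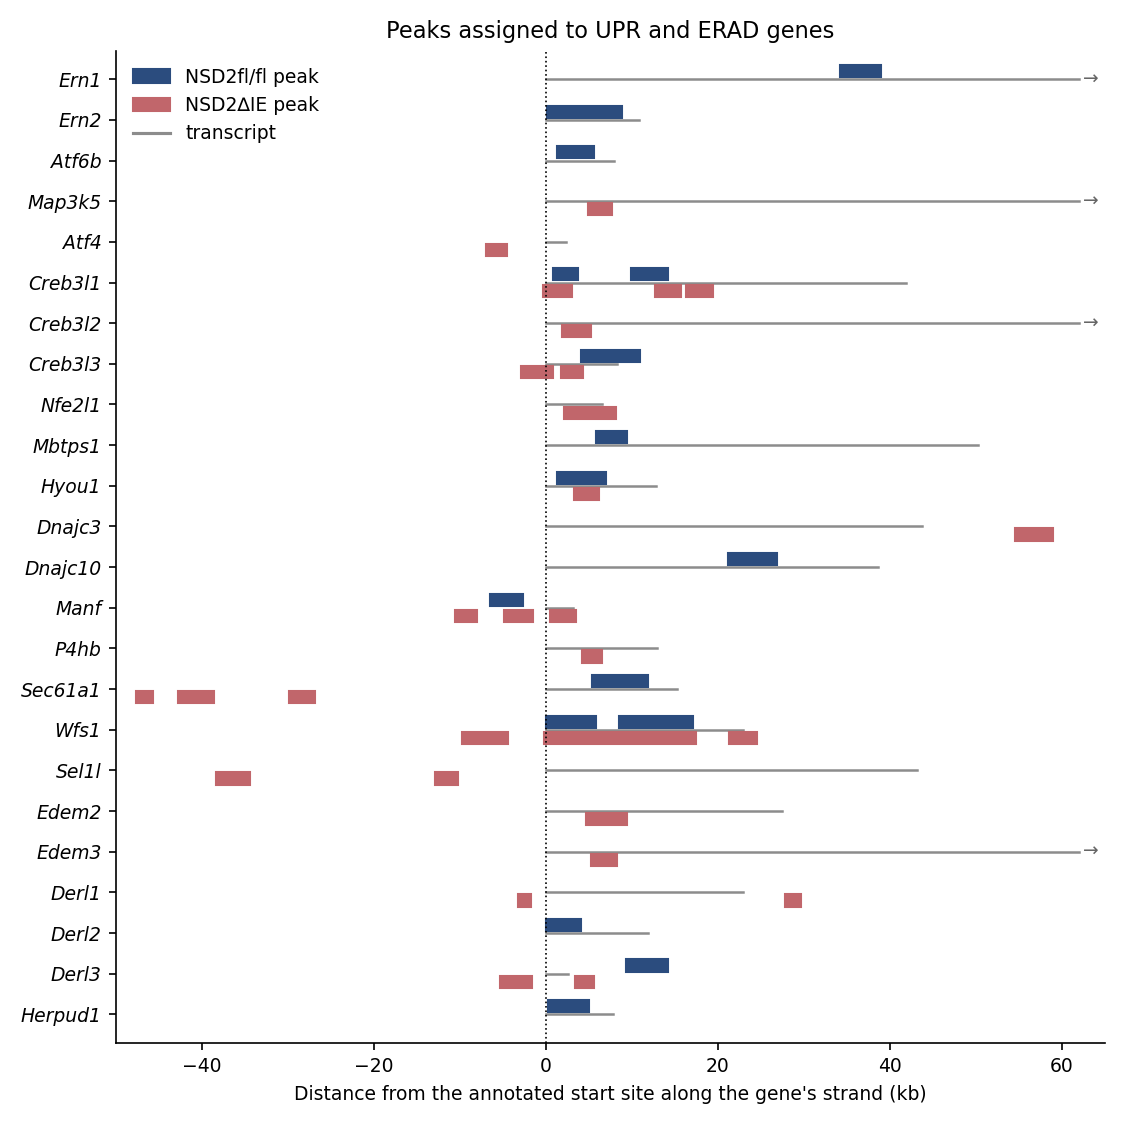
Position of all 45 member peaks relative to the annotated start site of the gene, in kb along the gene's strand, with NSD2fl/fl peaks above and NSD2∆IE peaks below the line of the transcript (an arrow marks a transcript that runs past the axis). Within 3 kb of the start site lay 8 of 16 NSD2fl/fl peaks and 10 of 29 NSD2∆IE peaks, beside 32.1% and 27.9% of all peaks of the lists.

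All 5 members of the group of membrane-bound transcription factors and their protease had a peak in at least 1 list. Over all protein-coding genes the share was 43.4%. Creb3l1 (OASIS) is released from the ER membrane by proteolysis and acts in secretory cells. It had 2 NSD2fl/fl peaks of 2911 and 4357 bp and 3 NSD2∆IE peaks of 3292, 3104 and 3201 bp, or 7268 against 9597 bp, a log2 ratio of 0.40. This ratio leaves out 2 further NSD2fl/fl peaks in the gene, of 3612 and 4022 bp, which were assigned to Dgkz. With them the length would be greater in NSD2fl/fl, as NSD2∆IE held no further peak in the gene. The promoter peaks of Creb3l1 shared 2220 bp, which is 76.3% of the NSD2fl/fl peak and 67.4% of the NSD2∆IE peak. The NSD2∆IE peak reached over the start site, while the NSD2fl/fl peak began 786 bp after it. In intron 1 the lists shared a further 1560 bp.

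Creb3l3 (CREBH), a regulator of lipid metabolism in liver and intestine, had about the same length in both lists, 6902 and 6297 bp, in different places. The NSD2fl/fl peak lay from 4091 bp after the start site to past the gene's end and ranked 1770 of 19976. The 2 NSD2∆IE peaks, of 3722 and 2575 bp, lay over the start site and 1747 bp after it. The lists shared only 231 bp by these assignments, or 3.35% of the NSD2fl/fl peak, which also shared 2043 bp with an NSD2∆IE peak assigned to the neighbour Thop1.

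Nfe2l1 is an ER-anchored factor that drives proteasome genes. It had an NSD2∆IE promoter peak of 5995 bp (chr11:96706648-96712642), at rank 1534 of 23518, 31.1 kb from the nearest NSD2fl/fl peak. Creb3l2 (BBF2H7) had an NSD2∆IE promoter peak of 3324 bp at rank 18871. Mbtps1, the site-1 protease that cleaves ATF6, had an NSD2fl/fl peak of 3647 bp, 5840 bp inside the gene, at rank 15651.

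Of the 10 lumenal chaperones, 4 had a peak, beside 43.4% of protein-coding genes. Hyou1, a large chaperone of the HSP70 family that assists BiP, had a peak over the same stretch in both lists. The NSD2fl/fl peak was 5732 bp (chr9:44292152-44297883) and the NSD2∆IE peak 2895 bp (chr9:44294115-44297009), which lay wholly inside it, a log2 ratio of -0.99. Manf, a secreted ER-resident factor induced by ER stress, had 1 NSD2fl/fl peak of 3838 bp upstream of its start site and 3 NSD2∆IE peaks of 3439, 3015 and 2599 bp. The log2 ratio was 1.24, and the upstream peaks shared 2182 bp. One NSD2∆IE peak of Manf lay inside the gene, and the farthest, 7.97 kb upstream, was in an exon of Dock3.

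The co-chaperones differed in the list that named them. Dnajc10, a reductase that prepares proteins for ERAD, had an NSD2fl/fl peak of 5786 bp in exon 14 of 22, and no NSD2∆IE peak lay within 256 kb. Dnajc3, a BiP co-chaperone and inhibitor of PERK, had an NSD2∆IE peak of 4457 bp that lay 54.5 kb from its start site, past its end and in an exon of Uggt2. Among the 7 lectin chaperones and disulfide isomerases, P4hb (protein disulfide isomerase) had the one assigned peak, where 43.4% of protein-coding genes had one. The P4hb peak was in NSD2∆IE, with 2329 bp in exon 3 of 11 (chr11:120457569-120459897). It had 9.52 signal units per bp beside a list median of 6.32. A narrow peak needs a high density to reach the lowest listed signal of 16571.

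**Figure D3:**
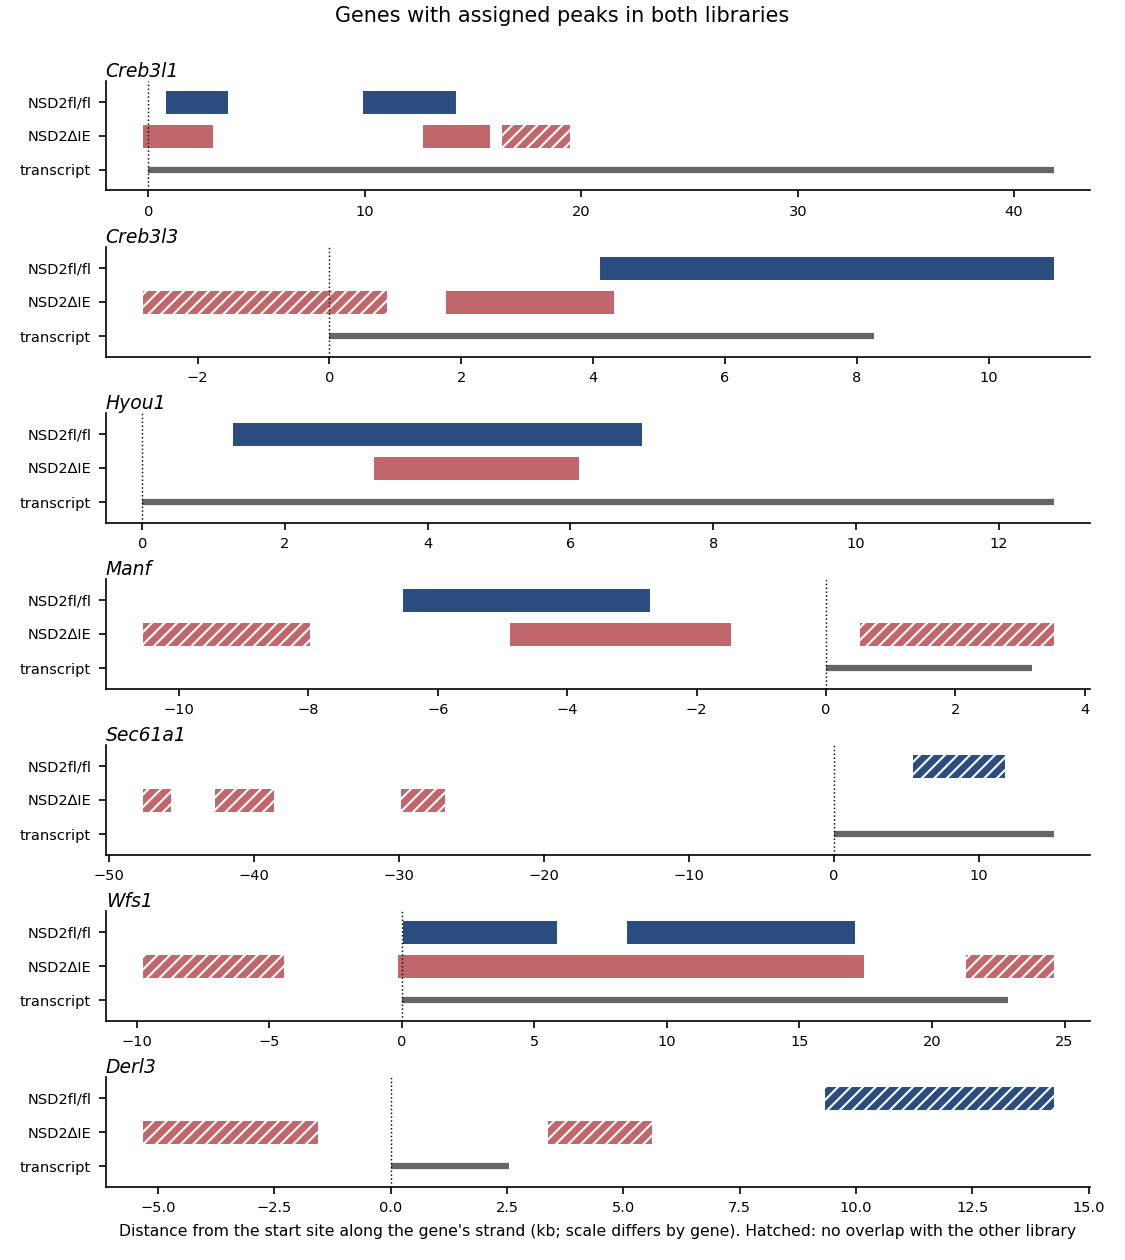
Peaks of the 7 members with assigned peaks in both libraries, in kb from the start site along the gene's strand; hatched peaks share no base with any peak of the other library. Filled bars face each other in Creb3l1, Creb3l3, Hyou1, Manf and Wfs1, and none do in Sec61a1 and Derl3.

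The translocon and ER membrane group held the highest-ranked peak of the set by summed signal. Wfs1 encodes wolframin, an ER membrane protein of calcium handling whose loss causes diabetes and deafness. In NSD2fl/fl it had peaks of 8632 bp (chr5:37129229-37137860) and 5826 bp (chr5:37140482-37146307), separated by 2621 bp. In NSD2∆IE a single domain of 17626 bp (chr5:37128894-37146519) covered both and the gap, and its edges differed from the outer NSD2fl/fl edges by 335 and 212 bp. This domain ranked 22 of 23518 by signal summed over its width, with 6.69 signal units per bp beside a list median of 6.32. It was the one member peak of 10 kb or more, a width that 163 NSD2∆IE peaks and 676 NSD2fl/fl peaks reached in all. With 2 further NSD2∆IE peaks of 5344 and 3359 bp, one upstream and one at the 3′ end, the length was 14458 bp against 26329 bp, a log2 ratio of 0.86. The peaks covered 63.2% of the gene in NSD2fl/fl and 83.4% in NSD2∆IE.

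As examples of members with a promoter peak, the window of Wfs1, which had one in both lists, and that of Herpud1, which had one in NSD2fl/fl and holds 2 of the elements, are printed. Other members, such as Derl2 and Creb3l3, also had a promoter peak. The Wfs1 window held none of the 4 elements and is without capitals. It has 70.0% G and C and 30 CpG sites. In the Herpud1 window, with 68.3% G and C and 29 CpG sites, the first run of capitals is CARE, 112 bases upstream of the TSS, and the other 2 are the fixed letters of ERSE-II, 52 bases upstream.
Wfs1 (chr5:36988933-36989232, minus strand): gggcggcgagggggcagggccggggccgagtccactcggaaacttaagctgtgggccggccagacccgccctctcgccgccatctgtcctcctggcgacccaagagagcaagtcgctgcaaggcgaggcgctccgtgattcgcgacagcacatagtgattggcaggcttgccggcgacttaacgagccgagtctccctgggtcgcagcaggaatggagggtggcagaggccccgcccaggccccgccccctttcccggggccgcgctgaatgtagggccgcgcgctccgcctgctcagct
Herpud1 (chr8:94386179-94386478, plus strand): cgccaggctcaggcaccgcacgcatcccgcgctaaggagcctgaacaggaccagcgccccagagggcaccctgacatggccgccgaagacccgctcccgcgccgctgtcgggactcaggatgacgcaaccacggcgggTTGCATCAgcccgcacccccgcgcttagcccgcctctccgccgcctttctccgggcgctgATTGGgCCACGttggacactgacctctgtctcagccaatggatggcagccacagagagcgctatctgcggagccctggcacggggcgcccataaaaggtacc

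Sec61a1, the pore subunit of the translocon, had peaks in both lists that lay far apart. The NSD2fl/fl peak of 6433 bp was inside the gene (chr6:88483957-88490389), and the 3 NSD2∆IE peaks of 3081, 4140 and 1973 bp were 26.8 to 45.7 kb upstream, in and near Kbtbd12. The nearest of them was 32225 bp from the NSD2fl/fl peak, so the log2 ratio of 0.52 compares different stretches of DNA. The ratio also leaves out an NSD2fl/fl peak of 3582 bp at the 3′ end of Sec61a1, assigned to Gm46965. With the whole of that peak counted, the length would be greater in NSD2fl/fl. Most of the peak lay past the gene's end, and its part inside the gene would not suffice for this. Sec61b, Sec62 and Sec63 had no peak.

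Of the 11 ERAD genes, 3 had a peak in NSD2fl/fl and 5 in NSD2∆IE, beside 30.9% and 32.9% of protein-coding genes. Herpud1 encodes Herp, a membrane protein of the ERAD ligase complex. Its NSD2fl/fl peak of 4805 bp (chr8:95114430-95119234) began 198 bp after the start site and ranked 5940 of 19976, and the nearest NSD2∆IE peak was 35.7 kb away. Derlins are membrane proteins of the retrotranslocation channel, and each of the 3 had a different pattern. Derl2 had an NSD2fl/fl peak of 4139 bp over its start site. Derl1 had NSD2∆IE peaks of 1520 bp upstream and 1938 bp past the gene's end, and the former was the narrowest member peak. It had 11.6 signal units per bp, but its summed signal was only 1.07 times the lowest of the list. At that width a listed peak must have a high density. Derl3 had assigned peaks in both lists, 4953 bp against 3781 and 2256 bp, at a log2 ratio of 0.29. They had no shared base, with the nearest pair 3695 bp apart, and all of them lay outside the gene. The NSD2fl/fl peak began 9.30 kb after the start site, past the gene's end and in an exon of Smarcb1. The NSD2∆IE peaks lay 1.56 kb upstream of the start site and 3.35 kb after it, past the gene's end. The ratio thus compares different stretches of DNA beside the gene.

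Edem2 and Edem3, which trim mannose from glycoproteins bound for ERAD, had NSD2∆IE peaks inside the gene, of 4776 and 2931 bp. Sel1l, the adaptor of the ERAD ligase that Syvn1 encodes, had 2 NSD2∆IE peaks of 2707 and 4004 bp, which were intergenic and 10.2 and 34.4 kb upstream. A further NSD2∆IE peak of 2620 bp lay at the 3′ end of Sel1l and was assigned to Ston2. No peak was listed for Syvn1, Edem1, Os9 and Vcp, the ATPase that pulls substrates out of the membrane.

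Overlap between the libraries was counted from 1 shared base. Of the 16 NSD2fl/fl member peaks, 7 overlapped an NSD2∆IE peak, or 43.8% (19.8% to 70.1%), beside 34.1% of all NSD2fl/fl peaks. Of the 29 NSD2∆IE member peaks, 6 overlapped, or 20.7% (7.99% to 39.7%), beside 30.7%. Both background shares lie inside the intervals. Of the 7 members with peaks in both lists, 5 had peaks that overlapped each other, beside 64.5% of protein-coding genes with peaks in both.

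**Figure D4:**
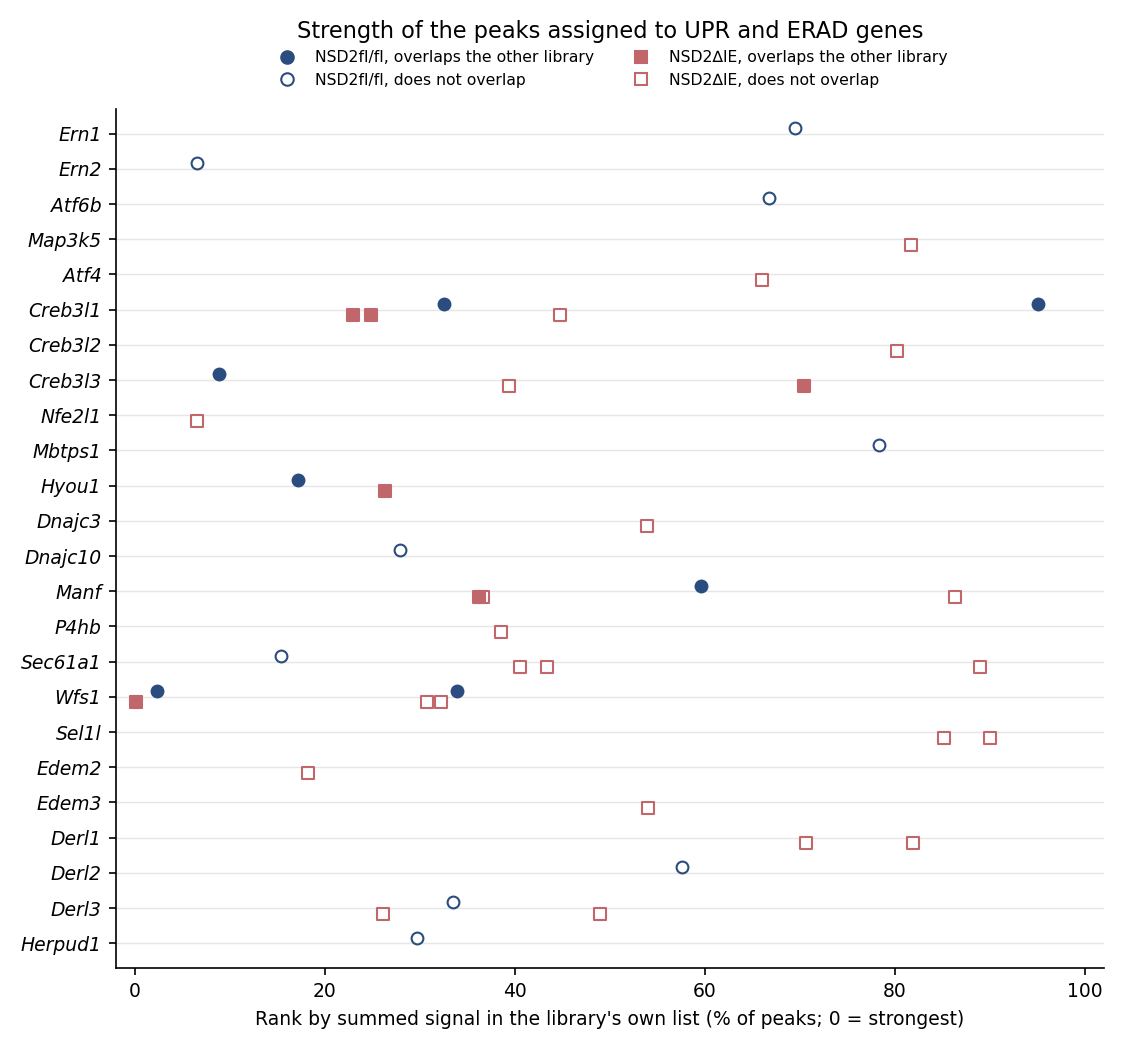
Rank of each member peak by summed signal within its own list, in percent of peaks (0 is the strongest), for each gene and library; filled symbols overlap a peak of the other library. Wfs1 has the first-ranked member peak in both libraries, and members are spread from there to 95.1%.

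Member peaks were spread over the whole range of signal. In NSD2fl/fl 10 of 16 and in NSD2∆IE 17 of 29 were in the stronger 50% of their list. Peaks within 10% of the lowest signal of the list numbered 2 in NSD2fl/fl, at Creb3l1 and Mbtps1, and 7 in NSD2∆IE, at Map3k5, Creb3l2, Manf, Sec61a1, Sel1l (2 peaks) and Derl1. These are 12.5% and 24.1% of the member peaks, beside 25.4% and 26.0% of all peaks of the lists.

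By position, 8 of the 16 NSD2fl/fl peaks were promoter peaks, within 3 kb of a start site, beside 32.1% of all peaks in that list. In NSD2∆IE 10 of 29 were, beside 27.9%. They belonged to 8 members in each library, or 15.7%, beside 16.8% of protein-coding genes in NSD2fl/fl and 16.3% in NSD2∆IE, and 3 members, Manf, Creb3l1 and Wfs1, had one in both lists, beside 7.36%. Of the 8 NSD2fl/fl promoter peaks, 1 lay over the start site, 6 downstream and 1 upstream, where 54.3% of all promoter peaks of the list lay over the start. In NSD2∆IE, 3 of 10 lay over the start, beside 43.9%. No NSD2fl/fl member peak was distal intergenic, beside 3598 of all 19976 peaks of that list. In NSD2∆IE 4 of 29 (13.8%) were, at Wfs1, Sel1l (2 peaks) and Derl1, beside 20.1%.

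The nearest gene can differ from the gene a peak lies in. In all, 23 further peaks, 10 in NSD2fl/fl and 13 in NSD2∆IE, lay in or partly over the bodies of 12 members but were assigned to neighbours. A gene's body was known here where a list named the gene or the annotation placed a peak in its exon or intron. Counted this way, 18 members had a peak in NSD2fl/fl, beside 36.2% of protein-coding genes, and 23 in NSD2∆IE, beside 38.5%. Both lists held one for 14 members, beside 27.5%, and 10 members had peaks that overlapped, beside 18.1%.

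Several members with assigned peaks in 1 list held peaks of both lists in, or partly over, their body. At the 3′ end of Ern1 both lists held a peak assigned to Icam2, and these shared 2579 bp of their 4692 and 2716 bp. Atf6b had peaks assigned to Tnxb in both lists that shared 3449 bp, 84.6% and 89.0%. Most of that shared stretch lay past the end of Atf6b. Map3k5 had an NSD2fl/fl peak of 6000 bp at exon 17 of 22 that 2 NSD2∆IE peaks met, all assigned to Map7. In Mbtps1 the lists held peaks of 3609 bp in NSD2fl/fl and 2950 bp in NSD2∆IE, both assigned to Slc38a8, at different places in the gene. The NSD2fl/fl peak lay mostly past the gene's 3′ end, and it overlapped another NSD2∆IE peak outside the gene. Edem2 had an NSD2fl/fl peak of 5034 bp at exon 8 of 11, assigned to Trpc4ap, beside its own NSD2∆IE peak, and these did not overlap. By nearest gene, each of these 5 had a peak in 1 list alone.

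Of the members with no assigned peak, 3 held one in their body. Uggt1, which tests glycoprotein folding, had peaks at exon 29 of 41 in both lists, of 3681 and 6656 bp with 3255 bp shared, assigned to Mir6897. Eif2ak3 encodes PERK and had an NSD2∆IE peak of 2198 bp in intron 9 of 16, among the weakest of the list at rank 23459 of 23518. Traf2 had one of 4282 bp at exon 8 of 11. Creb3l2, with an assigned peak in NSD2∆IE, held in both lists a further peak assigned to Gm33275, and these shared 3259 bp, 95.3% and 91.5%. By either way of counting, 27 members had a peak in at least 1 list, beside 47.2% of protein-coding genes, and 24 had none.

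The further ER genes on a list of 64, such as oxidoreductases, ubiquitin-conjugating enzymes, oligosaccharyltransferase subunits and eIF2α kinases, were counted in the same way. Of them 20 had a peak in NSD2fl/fl (31.25%), beside 30.9% of protein-coding genes, and 26 in NSD2∆IE (40.6%), beside 32.9%. Peaks in both lists were found for 16, beside 20.4%. Among these were Erp29, Txndc5, Pdia5, Pdia2, Bag6, Selenok, Man1b1, Faf2, Chac1, Crebrf, Eif2ak4, Rpn1, Dad1, Ddost and Sil1. Of the 30 with a peak, the covered length was less in NSD2∆IE for 11, more for 12 and similar for 7, beside 43.8%, 37.6% and 18.6% of protein-coding genes with a peak. Chac1, a glutathione-degrading target of ATF4, had 2 peaks and 7043 bp in NSD2fl/fl, and 5 peaks and 22331 bp in NSD2∆IE.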

How the data were processed

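H3K36me2 CUT&Tag peaks of 1 NSD2fl/fl and 1 NSD2∆IE colon library were used. The authors called and annotated peaks per library, and the deposited signal, a whole number, reads as coverage summed over a peak, with no scaling stated. The submitters' processing notes name Bowtie2, deepTools, SEACR and ChIPseeker, without versions, and the build hg38, which is human. The mouse build is not given in the sources used here, and peak coordinates are as listed. Gene names (17571 by symbol, 3 by synonym, 613 of 18187 unmatched) and promoter windows came from RefSeq tables of GRCm38.p6, another build.

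Members, roles, gene lists and motifs were chosen with earlier results of these data known. Every member with a peak is named with its peaks, those without one by name, and of the further ER genes those with a peak in both lists, of which 1 is not reported here by name. Chac1, and the genes named as assigned to peaks in member bodies, were picked after their values were seen.

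Widths were summed per gene, with a log2 limit of 0.5. Overlap needed 1 bp (bedtools 2.31.1). Counts used Python 3.11.15, pandas 2.3.3 and numpy 2.4.6, and shares have exact 95% binomial intervals (scipy 1.17.1). The functions were tested on simulated data. With 1 library per genotype no test was made. Alternatives were the strongest 50% of peaks, equal numbers of peaks, gene-body peaks, a log2 limit of 1, centred ratios, peak numbers, a reciprocal overlap of 50%, a gap of 1 kb and a promoter of 1 kb. Depth is unknown.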

Additional observations from a re-analysis of the deposited data

How the results depend on the processing

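Of 43 values of counts, shares and lengths over the members recomputed under the alternatives, 34 stayed within 1.5 times a count or length or inside a share's interval, and 9 moved. With the strongest 50% of each list, the members with a peak numbered 9 in NSD2fl/fl and 10 in NSD2∆IE, those with a promoter peak 4 in NSD2fl/fl, those with less length 5 and those with more length 6, which follows from fewer peaks. With a promoter of 1 kb, 5 and 4 members had a promoter peak in NSD2fl/fl and NSD2∆IE. With a reciprocal overlap of 50%, 18.75% of the NSD2fl/fl member peaks were shared. With gene-body peaks counted whatever gene they were assigned to, an alternative chosen after seeing the data, 14 members had a peak in both lists. Taking equal numbers of peaks left the NSD2fl/fl list whole by construction. With 1 library per genotype no library could be left out. No paired analysis was possible because the 2 libraries hold a single replicate each. The lists start at different lowest signals, so a gene without a listed peak may hold signal under the limit, and differences between the lists cannot be told apart from differences between 2 libraries of unknown depth.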
